A study of Mus musculus with 9 samples.

Results

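Core genes of the inflammasome pathway were followed in the mouse aorta: the sensors Nlrp3, Nlrc4, Naip5 and Nlrp1b, the channel P2rx7, the adaptor Pycard, the proteases Casp1 and Casp4, and the pore former Gsdmd. These 9 genes were chosen by name, through the Entrez ID of each row, out of 18830 genes listed, and all 9 passed the filter on low counts and were tested among 14741 genes. RNA came from the suprarenal abdominal aorta of ApoE knock out mice, a genotype prone to atherosclerosis that every group carries. The groups were mice infused through a mini osmotic pump with 1000 ng/kg/min of angiotensin II (Ang II), a blood pressure hormone that brings on aneurysms of the abdominal aorta in this genotype, for 14 days, mice with the same infusion for 28 days, and a sham control. Each group had 3 libraries of whole aortic tissue, and the sources used here do not give the age or sex of the mice or the day on which sham aortas were taken. The labels do not say that the libraries of a group came from separate animals, so p-values measure the spread between these samples, which may be technical.

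Inflammasomes are protein complexes that form in the cytosol when a sensor meets a danger signal or a microbial product. The sensor recruits the adaptor ASC, which gathers and activates caspase-1. Caspase-1 cuts the precursors of interleukin-1 beta and interleukin-18 into their active forms and cuts gasdermin D, whose freed end makes pores in the plasma membrane and kills the cell by pyroptosis. Macrophages and monocytes are the cells best known for this pathway, and the transcription factor NF-kB is known to prime it by raising the transcripts of Nlrp3 and Il1b.

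Library totals ran from 9609690 to 14923936 expected counts. Apoe itself was read in every library, at 22.5 to 648 CPM (counts scaled to a common library total), and counts per gene do not show which part of the targeted gene was read. The titles of the libraries begin with Muscle while their tissue field says Aorta. Smooth muscle markers were read beside that label, though they cannot by themselves tell aorta from other tissue. The 6 markers summed to 3551 to 16216 CPM at 14 days and 9370 to 28515 CPM in sham. At 28 days they summed to 1982 to 6102 CPM, below sham without overlap. None was at 0 in any library. Nerve, skeletal muscle, fat and lymph node stroma markers differed between libraries. The 6 nerve and ganglion markers summed to 1840 CPM in 14-day replicate 1, 2047 CPM in 28-day replicate 2 and 4405 CPM in sham replicate 2, against 17.2 to 926 CPM in the other 6 libraries. The 6 skeletal muscle markers summed to 13330, 4438 and 91.8 CPM in 28-day replicates 1 to 3, against 3.86 to 43.5 CPM in the 6 other libraries. In 28-day replicates 1 and 2 these sums exceeded the smooth muscle sums of 6102 and 2324 CPM. The 5 brown and white fat markers summed to 2820 to 8000 CPM at 14 days, below the 10052 to 17119 CPM of sham without overlap. At 28 days they summed to 6930 to 14845 CPM. The 5 lymph node stroma markers summed to 157 to 603 CPM at 14 days, 213 to 792 CPM at 28 days and 39.6 to 71.7 CPM in sham. Counts given without the 3 nerve-rich libraries leave out 14-day replicate 1, 28-day replicate 2 and sham replicate 2.

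After 14 days of Ang II all 9 inflammasome genes stood higher than in sham in every library, and none reached the adjusted threshold of edgeR's quasi-likelihood test. Their fold differences ran from 2.05-fold for Casp4 to 7.31-fold for Nlrc4. For 9 of 9 genes the 2 groups were apart, against 12.6% of all tested genes not overlapping with the 14-day libraries higher. The unadjusted p was under 0.05 for 9 of 9, against 13.1% of all genes on the higher side, and 0 of 9 passed after adjustment over all genes, against 0% of all genes, with edgeR adjusted p between 0.117 and 0.161. DESeq2, run as the other count test, called 8 of 9 with P2rx7 the exception, against 8.6% of all genes called higher, and limma-voom called 0. The median log2 fold change of the 9 genes was 1.83, against -0.07 over all genes tested. Without 14-day replicate 2 that median was 1.13 and 6 of 9 genes had an unadjusted p under 0.05. Groups that are apart stay apart when a library is left out, so that count cannot fall.

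Macrophage marker transcripts stood higher beside these genes. All 12 macrophage and monocyte markers were read in all libraries, and they summed to 2813, 16054 and 2622 CPM in replicates 1, 2 and 3 of 14 days, 2623, 3198 and 4435 CPM at 28 days, and 1884, 445 and 963 CPM in sham. At 14 days 10 of the 12 markers had groups that did not overlap, with a median log2 fold change of 2.63, and at 28 days 10 of 12 with a median of 1.58. The library with the highest macrophage sum, 14-day replicate 2, was also the highest of all 9 libraries for all 9 inflammasome genes. That library also had the highest sum of 5 fibroblast markers, 10503 CPM against 1898 to 5717 CPM in the other 8, and the lowest smooth muscle sum of its group. The part of these markers in the result was not tested beyond the ratios given further on. In RNA of whole tissue, fewer cells of a type and less RNA per cell cannot be told apart.

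**Figure D1:**
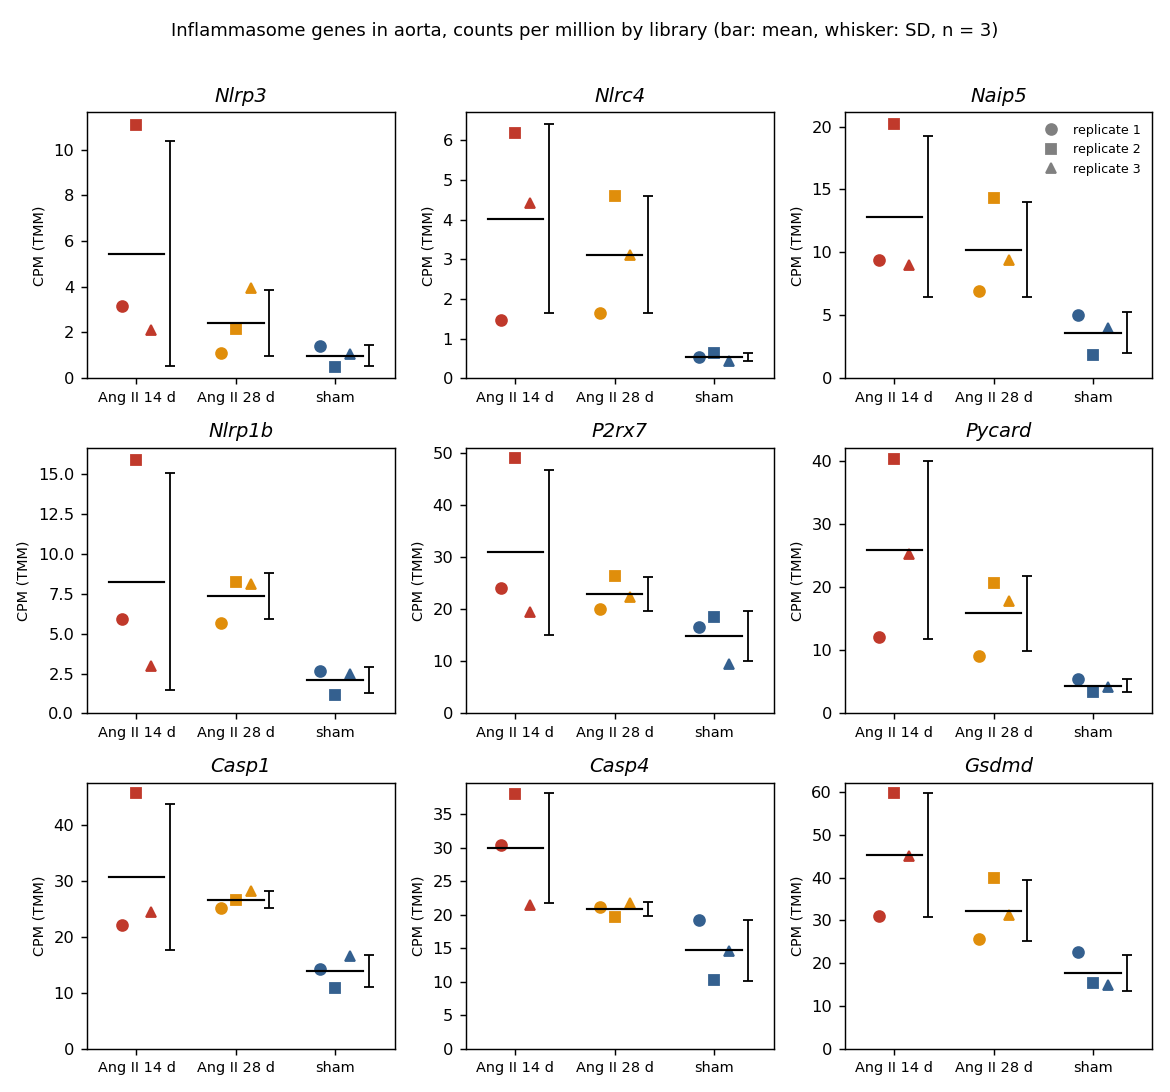
Each panel plots 1 gene, with the level in CPM scaled by TMM on a linear axis from 0 and the 14-day, 28-day and sham groups from left to right. Each symbol is a library (circle, square and triangle for replicates 1 to 3), the bar is the mean and the whisker the SD of 3 libraries. The square at 14 days is the highest point of every panel, and at 14 days every point lies above every sham point.

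The series names NF-kB signalling as its interest, so promoters of genes that stood higher together were searched for 5 known motifs on both strands, in the 250 bases before each start in the RefSeq promoter table (GRCm38.p6). A window was on hand for 8 of the 9 genes, not for Gsdmd, with 12 windows in all since some genes have several starts. The NF-kB consensus was found in 3 of these genes, Nlrp3, Naip5 and Casp4, and in 8.23% of all 27025 genes in the table. The motif of PU.1, a transcription factor of myeloid cells, searched as GAGGAAGT, was found in Pycard and Nlrp1b, 2 genes, and in 2.79% of all genes. The AP-1 motif TGANTCA was found in P2rx7 alone, and in 7.82% of all genes. The interferon motifs ISRE and TTCNNNGAA (GAS) were found in 0 of the 8 genes, and in 3.46% and 8.13% of all genes. The windows with the matches of Naip5 and Nlrp1b lie inside the span of the gene, before an internal start. A match is a run of letters and says nothing of binding.

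The windows of the 3 genes with an NF-kB match, and that of the adaptor gene with a PU.1 match, are printed 5′ to 3′ on the strand of the gene with the matches in capitals, since NF-kB is the pathway the series names and Pycard had the smallest p of the 9 genes at 14 days. The Nlrp3 window is chr11:59541319-59541568 on the plus strand, with the match at -186 to -177 counted from the start (-1 is the base before it). The Naip5 window is chr13:100247337-100247586 on the minus strand, with the match at -218 to -209. The Pycard window is chr7:127993868-127994117 on the minus strand, with the PU.1 match, on the opposite strand of the gene, at -44 to -37. The Casp4 window is chr9:5308599-5308848 on the plus strand, with a pair of overlapping matches that begin at -93 and -92 and a separate match on the opposite strand at -39 to -30.
Nlrp3: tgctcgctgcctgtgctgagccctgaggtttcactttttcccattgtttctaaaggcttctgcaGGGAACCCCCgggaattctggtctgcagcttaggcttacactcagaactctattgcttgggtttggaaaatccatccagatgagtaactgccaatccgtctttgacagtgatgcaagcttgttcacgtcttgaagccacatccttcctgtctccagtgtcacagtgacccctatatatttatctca
Naip5: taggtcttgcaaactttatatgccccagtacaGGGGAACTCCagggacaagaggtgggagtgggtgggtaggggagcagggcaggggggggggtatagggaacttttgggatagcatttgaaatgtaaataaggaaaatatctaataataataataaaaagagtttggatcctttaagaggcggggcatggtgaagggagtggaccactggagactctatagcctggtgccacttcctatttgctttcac
Pycard: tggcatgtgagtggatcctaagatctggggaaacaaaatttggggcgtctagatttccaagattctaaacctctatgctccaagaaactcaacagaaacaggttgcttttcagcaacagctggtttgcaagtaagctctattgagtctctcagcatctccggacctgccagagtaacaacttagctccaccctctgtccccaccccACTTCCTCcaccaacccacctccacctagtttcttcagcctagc
Casp4: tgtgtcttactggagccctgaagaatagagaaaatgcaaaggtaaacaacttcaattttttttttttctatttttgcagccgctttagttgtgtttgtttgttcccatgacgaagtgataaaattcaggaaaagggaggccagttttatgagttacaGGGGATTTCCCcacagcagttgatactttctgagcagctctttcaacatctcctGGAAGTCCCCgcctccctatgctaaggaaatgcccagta

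The sensor genes were the least read of the set. Nlrp3 encodes the sensor of ion flux and crystals, and cholesterol crystals are among its known triggers; its promoter window holds 1 of the NF-kB matches printed before (Entrez 216799, ENSMUSG00000032691, chromosome 11, 59541569 to 59566955, all positions in GRCm38.p6). Nlrp3 levels were 3.15, 11.1 and 2.10 CPM in the 14-day libraries (replicates 1 to 3, here and for each gene), 1.09, 2.15 and 3.95 CPM at 28 days, and 1.39, 0.501 and 1.07 CPM in sham. The 14-day libraries lay above sham and 14-day replicate 2 stood far above the other 2, while 28-day replicate 1 lay inside the sham range. Nlrp3 was 5.54-fold higher at 14 days (log2 2.47 ± 0.79 SE, edgeR adjusted p = 0.137, DESeq2 adjusted p = 0.0254) and 2.45-fold at 28 days (log2 1.29 ± 0.77, edgeR adjusted p = 0.554). Without 14-day replicate 2 the 14-day log2 value was 1.44. The lowest count behind these values was 7 reads, in sham replicate 2, so the sham level has a large counting error.

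Nlrc4 encodes the sensor that assembles with NAIP proteins and recruits caspase-1 (Entrez 268973, ENSMUSG00000039193, chromosome 17, 74426255 to 74459144). It had 1.47, 6.19 and 4.41 CPM at 14 days, 1.64, 4.59 and 3.11 CPM at 28 days, and 0.533, 0.644 and 0.445 CPM in sham. Neither Ang II group overlapped sham, although the lowest sham count was 5 reads. Nlrc4 had the largest fold of the 9 genes at both times, 7.31-fold at 14 days (log2 2.87 ± 0.64, edgeR adjusted p = 0.117) and 5.68-fold at 28 days (log2 2.51 ± 0.63, edgeR adjusted p = 0.213). DESeq2 called it at both times, with adjusted p = 0.00246 and 0.0177.

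Naip5 encodes the protein that binds bacterial flagellin and hands the signal to NLRC4 (Entrez 17951, ENSMUSG00000071203, chromosome 13, 100211735 to 100250930). Its window, which lies inside this span before an internal start, also holds an NF-kB match. The level of Naip5 was 9.39, 20.2 and 8.96 CPM at 14 days, 6.90, 14.3 and 9.42 CPM at 28 days, and 5.01, 1.86 and 4.00 CPM in sham, so that the groups did not overlap at either time. The log2 fold changes were 1.83 ± 0.50 at 14 days (edgeR adjusted p = 0.117) and 1.5 ± 0.50 at 28 days (edgeR adjusted p = 0.25). Naip genes are close copies of each other, so the split of reads between Naip5 and Naip6 can be uncertain. The expected count was not a whole number in 1 of 9 libraries for each of these genes. The 2 summed to 13.8, 31.6 and 13.1 CPM at 14 days, 9.41, 19.1 and 14.1 CPM at 28 days, and 7.35, 3.29 and 5.69 CPM in sham, again without overlap.

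Nlrp1b encodes a sensor that is set free when its own front part is degraded, as by anthrax lethal toxin in mice (Entrez 637515, ENSMUSG00000070390, chromosome 11, 71152574 to 71242514). It had 5.89, 15.9 and 2.99 CPM at 14 days, 5.69, 8.24 and 8.12 CPM at 28 days, and 2.66, 1.14 and 2.49 CPM in sham. The lowest 14-day library lay just above the highest sham library, and the 28-day libraries lay further above. Its log2 fold changes were 1.98 ± 0.63 at 14 days (edgeR adjusted p = 0.136), which was 1.10 without 14-day replicate 2, and 1.81 ± 0.63 at 28 days (edgeR adjusted p = 0.261). In 3 of 9 libraries its expected count was not a whole number, a sign of reads shared with a similar sequence, and with Nlrp1a added the sums were 7.57, 19.9 and 4.01 CPM at 14 days, 6.90, 9.10 and 9.87 CPM at 28 days, and 3.09, 1.43 and 3.20 CPM in sham.

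P2rx7 encodes the ATP-gated channel through which potassium leaves the cell, a trigger upstream of NLRP3 (Entrez 18439, ENSMUSG00000029468, chromosome 5, 122643927 to 122692336). It had 24.2, 49.1 and 19.6 CPM at 14 days, 20.1, 26.4 and 22.4 CPM at 28 days, and 16.7, 18.5 and 9.52 CPM in sham. The groups did not overlap, but the lowest Ang II libraries lay close to the highest sham library, which was sham replicate 2. P2rx7 had the highest adjusted p of the 9 genes at both times, at log2 1.05 ± 0.38 for 14 days (edgeR adjusted p = 0.161, DESeq2 adjusted p = 0.0718) and 0.62 ± 0.38 for 28 days (edgeR adjusted p = 0.565). Without 14-day replicate 2 the 14-day value was 0.59.

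Pycard encodes the adaptor ASC, which polymerises into a single speck per cell and joins sensors to caspase-1, and its promoter window holds the PU.1 match (Entrez 66824, ENSMUSG00000030793, chromosome 7, 127991373 to 127993867). Its level was 12.1, 40.3 and 25.3 CPM at 14 days, 9.19, 20.7 and 17.8 CPM at 28 days, and 5.54, 3.43 and 4.27 CPM in sham. Both Ang II groups lay clear of sham. Pycard had the smallest p of the 9 genes at 14 days, with a 5.86-fold difference (log2 2.55 ± 0.49, edgeR adjusted p = 0.117, DESeq2 adjusted p = 0.000112), and was 3.61-fold higher at 28 days (log2 1.85 ± 0.48, edgeR adjusted p = 0.215, DESeq2 adjusted p = 0.0115).

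The adaptor stood higher relative to the caspase it serves. The ratio of Pycard to Casp1 CPM was 0.543, 0.881 and 1.03 at 14 days, 0.365, 0.775 and 0.632 at 28 days, and 0.391, 0.316 and 0.257 in sham. The 14-day ratios did not overlap those of sham, while 28-day replicate 1 lay inside the sham range. The ratio has no length correction, so its absolute size carries no meaning.

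Casp1 encodes the protease that cuts the cytokine precursors and gasdermin D (Entrez 12362, ENSMUSG00000025888, chromosome 9, 5298517 to 5307281). It had 22.2, 45.8 and 24.4 CPM at 14 days, 25.2, 26.7 and 28.2 CPM at 28 days, and 14.2, 10.9 and 16.6 CPM in sham. All Ang II libraries lay above all sham libraries, and the 3 libraries at 28 days lay close together. Casp1 was 2.22-fold higher at 14 days (log2 1.15 ± 0.30, edgeR adjusted p = 0.117) and 1.92-fold at 28 days (log2 0.94 ± 0.30, edgeR adjusted p = 0.239). Without 14-day replicate 2 the 14-day log2 value was 0.76.

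Casp4 lies next to Casp1 and encodes the mouse protease also called caspase-11, which binds lipopolysaccharide in the cytosol and cuts gasdermin D without an inflammasome sensor, and its promoter window holds 3 NF-kB matches (Entrez 12363, ENSMUSG00000033538, chromosome 9, 5308849 to 5336791). It had 30.4, 38.0 and 21.5 CPM at 14 days, 21.2, 19.7 and 21.7 CPM at 28 days, and 19.2, 10.2 and 14.6 CPM in sham. The 28-day libraries lay just above sham replicate 1. The log2 fold changes were the smallest of the 9 genes, 1.04 ± 0.28 at 14 days (edgeR adjusted p = 0.117) and 0.51 ± 0.28 at 28 days (edgeR adjusted p = 0.502). The ratio of Casp4 to Casp1 CPM was 0.843, 0.737 and 0.769 at 28 days, all below the 1.35, 0.934 and 0.877 of sham, and at 14 days it was 1.37, 0.830 and 0.881 and overlapped sham.

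Gsdmd encodes gasdermin D, the pore former at the end of the pathway (Entrez 69146, ENSMUSG00000022575, chromosome 15, 75862144 to 75867408). Its level was 31.0, 59.8 and 45.1 CPM at 14 days, 25.7, 39.9 and 31.2 CPM at 28 days, and 22.6, 15.5 and 15 CPM in sham. The Ang II groups did not overlap sham, with 28-day replicate 1 next to sham replicate 1. Gsdmd was 2.56-fold higher at 14 days (log2 1.36 ± 0.29, edgeR adjusted p = 0.117, DESeq2 adjusted p = 0.00118) and 1.82-fold at 28 days (log2 0.87 ± 0.29, edgeR adjusted p = 0.253, DESeq2 adjusted p = 0.091).

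**Figure D2:**
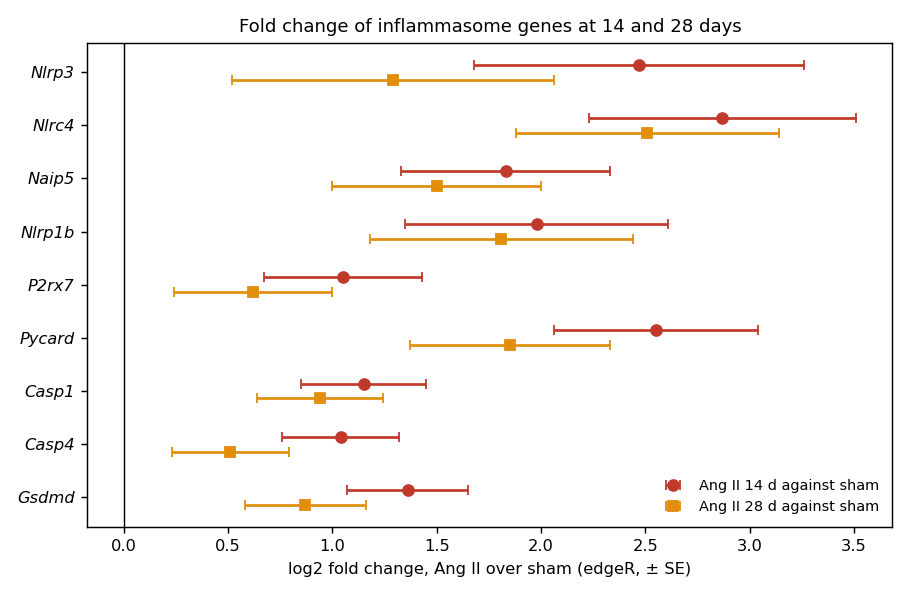
The horizontal axis is the log2 fold change of Ang II over sham from edgeR with its SE, for 9 genes from top to bottom, with circles for 14 days and squares for 28 days. All points lie right of 0, the 14-day point lies right of the 28-day point for every gene, and Nlrc4 has the largest values at both times.

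After 28 days of Ang II the same genes were higher than sham by 1.43-fold for Casp4 to 5.68-fold for Nlrc4. For 8 of 9 the 2 groups were apart, with Nlrp3 the exception, against 12.2% of all genes not overlapping on the higher side. The unadjusted p was under 0.05 for 6 of 9, with Nlrp3, P2rx7 and Casp4 outside, against 7.96% of all genes on the higher side. Without the 3 nerve-rich libraries it was under 0.05 for 2 of 9. edgeR called 0 of 9 after adjustment (adjusted p from 0.213 to 0.565), against 0% of all genes, DESeq2 called Nlrc4 and Pycard, 2 of 9, against 3.89% of all genes called higher, and limma-voom called 0. The median log2 fold change was 1.29, against -0.08 over all genes tested, and 0.83 without the 3 nerve-rich libraries. Those left out include 28-day replicate 2, the highest 28-day library for 6 of the 9 genes. They also include sham replicate 2, the lowest sham library for 6 of the 9. The part of nerve tissue in the lower median and count was not tested.

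The later time was set against the earlier directly, since both share the sham libraries. Aortas at 28 days had lower fitted levels than at 14 days for all 9 genes, against 55.2% of all genes, with log2 differences from -1.17 to -0.17 and edgeR adjusted p between 0.774 and 0.973. The largest difference was that of Nlrp3, at log2 -1.17 ± 0.75, and the smallest relative to its error that of Nlrp1b, at -0.17 ± 0.60. No gene had groups that did not overlap, against 5.71% of all genes not overlapping on the lower side, and 0 of 9 had an unadjusted p under 0.05, against 2.27% of all genes. DESeq2 and limma-voom also called 0 of 9, against 0.21% of all genes called lower by DESeq2. For 5 genes this direction rested on 1 library. Without 14-day replicate 2 the log2 difference was positive for Nlrc4 (0.09), Naip5 (0.16), Nlrp1b (0.73), P2rx7 (0.07) and Casp1 (0.20), and stayed negative for Nlrp3, Pycard, Casp4 and Gsdmd.

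With both times pooled, the 6 Ang II libraries were higher than the 3 sham libraries by a median log2 fold change of 1.66, against -0.08 over all genes. For 8 of 9 genes the 2 groups were apart, against 8.57% of all genes on the higher side, and Nlrp3 was the exception. The unadjusted p was under 0.05 for 9 of 9, against 11.4% of all genes, and for 5 of 9 without the 3 nerve-rich libraries. DESeq2 called 7 of 9, all but Nlrp3 and P2rx7, against 7.87% of all genes, and edgeR called 0 (adjusted p from 0.125 to 0.212), against 0% of all genes.

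To compare levels between genes, CPM were divided by the length in kilobases of the principal transcript in the annotation. On this scale the effector end of the pathway was the most abundant, though the place of Pycard depends on the length used. In sham, Casp4, Gsdmd and Casp1 had 10.2 ± 3.14, 9.89 ± 2.36 and 9.28 ± 1.93 CPM per kb (SD, n = 3 each), and these 3 did not differ beyond their spread. P2rx7 followed with 3.02 ± 0.960 CPM per kb and Pycard with 1.16 ± 0.279. The sensors came last, at 0.696 ± 0.309 for Naip5, 0.508 ± 0.201 for Nlrp1b, 0.245 ± 0.111 for Nlrp3 and 0.114 ± 0.0211 CPM per kb for Nlrc4.

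At 14 days the order had Gsdmd first at 25.3 ± 8.02 CPM per kb, then Casp4 at 20.9 ± 5.76 and Casp1 at 20.6 ± 8.70. Pycard and P2rx7, at 6.81 ± 3.72 and 6.27 ± 3.21 CPM per kb, overlapped in the middle. Among the sensors, Naip5 at 2.47 ± 1.23 and Nlrp1b at 2 ± 1.64 were next to each other, and Nlrp3 at 1.36 ± 1.22 and Nlrc4 at 0.851 ± 0.504 were lowest. At 28 days Gsdmd and Casp1 had 18.0 ± 3.99 and 17.8 ± 1.03 CPM per kb, Casp4 had 14.6 ± 0.731, and Nlrc4 and Nlrp3 were level at 0.658 ± 0.311 and 0.596 ± 0.359. Pycard's place rests on its annotated transcript of 3800 bases, which is longer than its whole RefSeq span of 2495 bases. Over that span its levels were 10.4 ± 5.67 CPM per kb at 14 days, 6.38 ± 2.4 at 28 days and 1.77 ± 0.425 in sham. A span also counts introns, so on the RefSeq gene these levels are lower bounds. The rank of Pycard among the 9 genes is therefore not settled.

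**Figure D3:**
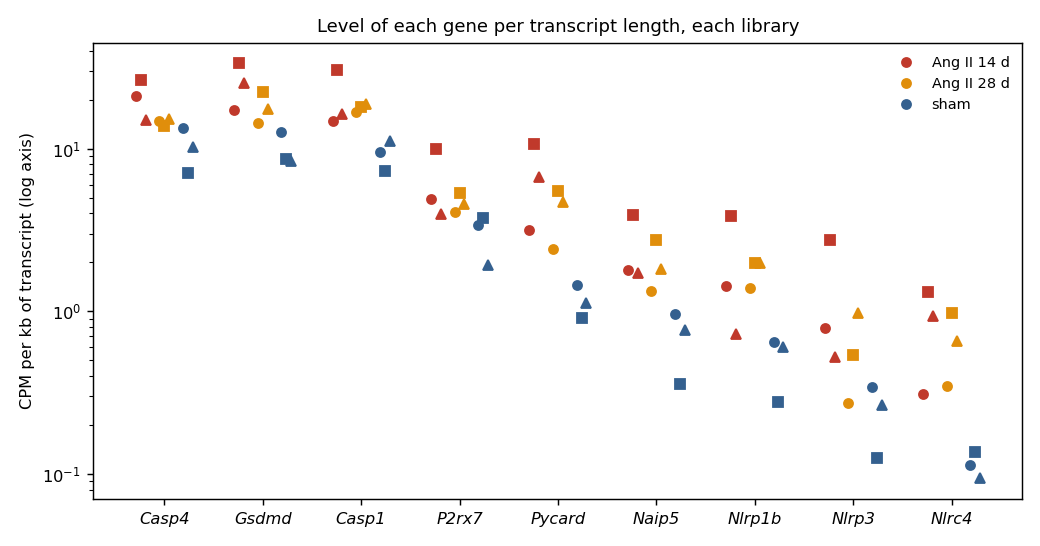
The vertical axis is CPM per kilobase of transcript on a log axis, with the 9 genes ordered by their level in sham and 14-day, 28-day and sham libraries from left to right within each gene. Symbols are libraries (circle, square and triangle for replicates 1 to 3), and Casp4, Gsdmd and Casp1 lie above 7 CPM per kb in every library while Nlrp3 and Nlrc4 lie below 3.

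Across the 9 libraries the 9 genes varied together. Pearson's r of log2 CPM over the 36 pairs of genes had a median of 0.86 and ran from 0.65, for Nlrc4 with Casp4, to 0.98, for Pycard with Gsdmd. These points share the libraries and their groups, so r describes the pattern and carries no test. The library order was also shared. All 9 genes were highest in 14-day replicate 2, and the lowest library was sham replicate 2 for 6 genes and sham replicate 3 for 3. Within the 28-day group replicate 2 was highest for 6 genes and replicate 3 for 3.

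The genes outside the set whose pattern over the 9 libraries was most like each member, by Pearson's r of log2 CPM, were taken as a description. Among those most like Nlrp3 were Fcgr1 (0.971), Lacc1 (0.971), Socs3 (0.970) and Cd244a (0.968), of which Fcgr1 is in the macrophage marker list. Pycard was closest to 5430427O19Rik and Fermt3 (0.996 each), Kif4 (0.995), Inpp5d and Irf5 (0.993 each). Naip5 was closest to Hpse (0.997), a heparanase, and Cybb (0.978), a subunit of the phagocyte oxidase. Nlrp1b was closest to Selenop (0.981) and Clec4n (0.977), Casp1 to Pilra (0.992), Pilrb1 (0.990) and Runx1 (0.986), and Nlrc4 to Marcksl1 (0.989). Gsdmd was closest to Mcm3 (0.991), a DNA replication gene, and Sh3bp2 (0.990), P2rx7 to Sdc3 (0.978), and Casp4 to Sapcd2 (0.974) and Npl (0.972).

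Set against the summed macrophage markers, no inflammasome gene lay above sham without overlap at either time. The share of all genes lying above was not computed, so this count is not particular to the 9 genes. At both times the marker sum itself stood above sham without overlap. The log2 ratio of each gene to that sum overlapped sham for 8 of 9 genes at 14 days and 7 of 9 at 28 days, and the other 1 and 2 lay below sham. Over the 14215 tested genes read in every library, 67.9% had such a ratio below sham without overlap at 14 days and 70.7% at 28 days. P2rx7 was the gene below sham at both times, with mean ratios of -7.43 ± 0.81 at 14 days, -7.19 ± 0.38 at 28 days and -6.02 ± 1.24 in sham (log2, SD, n = 3 each). Casp4 was also below sham at 28 days, at -7.32 ± 0.36 against -6.04 ± 0.58 in sham. With the marker Lyz2 left out of the sum, 1 gene, Casp4, lay below sham at each time and P2rx7 overlapped, against 64.4% of those genes below sham at 14 days and 73% at 28 days. With Lyz2 kept in the sum, the mean ratio of Pycard was level with sham. It was -7.73 ± 0.98 at 14 days, -7.79 ± 0.46 at 28 days and -7.75 ± 0.70 in sham. On that sum Nlrc4 had the one positive difference from sham beyond 0.1 at both times, 0.28 at 14 days and 0.58 at 28 days, with groups that overlapped. Without Lyz2 the differences were 0.55 and 0.76 for Nlrc4 and 0.28 and 0.14 for Pycard, also with overlap.

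Against Ptprc, the pan-leukocyte antigen CD45, the differences from sham were negative for all 9 genes at both times, as they were for 98.5% of the 14215 genes at 14 days and 98.3% at 28 days. Ptprc had 54.5, 191 and 368 CPM at 14 days, 48.1, 247 and 108 CPM at 28 days, and 23.4, 12.8 and 20.3 CPM in sham, and so stood highest in 14-day replicate 3, not in the library where the inflammasome genes were highest. At 14 days 4 genes had ratios to Ptprc below sham without overlap: P2rx7, Casp1, Casp4 and Gsdmd, with log2 differences of -2.10, -2.01, -2.06 and -1.77. At 28 days 7 did, all but Nlrc4 and Nlrp1b. Of the 14215 genes 83.8% had ratios to Ptprc below sham without overlap at 14 days and 84.3% at 28 days, so lying below sham on this ratio was not particular to the 9 genes. The 14-day count of 4 of 9 was under that share, and the 28-day count of 7 of 9 was close to it. The cause of the lower count at 14 days was not tested. Ptprc is shared by lymphocytes, and the B cell markers summed to 90.2, 91.8 and 1296 CPM at 14 days, 49.5, 1271 and 251 CPM at 28 days, and 16.5, 8.30 and 8.36 CPM in sham. The neutrophil markers summed to 22.6, 94.4 and 28.7 CPM at 14 days, 28.8, 46.5 and 24 CPM at 28 days, and 11.7, 4.79 and 8.28 CPM in sham. Whether the amount of any of these cells set the level of an inflammasome gene was not tested.

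**Figure D4:**
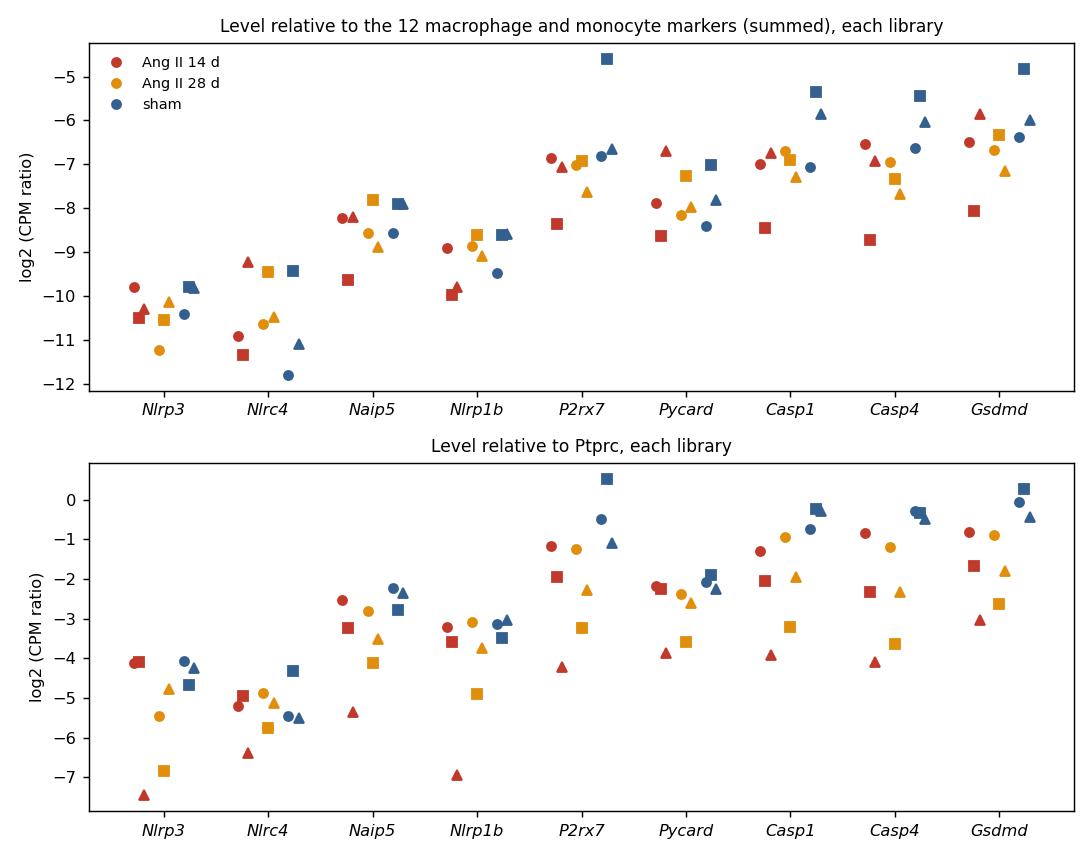
The vertical axes are log2 ratios of CPM, each of the 9 genes over the sum of 12 macrophage and monocyte markers in the upper panel and over Ptprc in the lower, with 14-day, 28-day and sham libraries from left to right within each gene. Symbols are libraries (circle, square and triangle for replicates 1 to 3). The groups overlap for most genes in the upper panel, while in the lower panel the sham points of P2rx7, Casp1, Casp4 and Gsdmd lie above all Ang II points.

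The rest of the pathway was read from 6 lists of other sensors, cytokine substrates, priming and licensing genes, brakes, other caspases and executioners, and cytokine receptors. Of 53 genes in the files 49 were tested, and 0 passed edgeR's adjusted threshold at either time. At 14 days 29 of 49 had an unadjusted p under 0.05 and were higher and 0 were lower, 23 were called higher by DESeq2, and 26 did not overlap sham on the higher side, against the 13.1%, 8.6% and 12.6% of all genes already given. At 28 days the counts were 18, 8 and 25 of 49, against 7.96%, 3.89% and 12.2% of all genes. The median log2 fold changes of the 49 genes were 1.09 at 14 days and 0.61 at 28 days, against -0.07 and -0.08 over all genes.

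Among the other sensors 7 of 10 tested genes had an unadjusted p under 0.05 at 14 days, all higher, and 4 of 10 at 28 days. Aim2, the sensor of DNA in the cytosol, had 7.01, 18.7 and 30.6 CPM at 14 days, 9.85, 28.3 and 10.9 CPM at 28 days, and 4.58, 2.29 and 2.31 CPM in sham. Unlike the 9 genes, Aim2 was highest in 14-day replicate 3, and neither Ang II group overlapped sham (log2 2.62 ± 0.66 at 14 days, edgeR adjusted p = 0.117, and 2.42 ± 0.65 at 28 days, edgeR adjusted p = 0.217). Naip2, which binds the rod protein of bacterial secretion systems, averaged 18.4 ± 12.3 CPM at 14 days, 10.4 ± 2.09 CPM at 28 days and 3.46 ± 1.72 CPM in sham. Nlrc3, a sensor-like protein known to dampen signalling, averaged 21.5 ± 13.4 CPM at 14 days, 11.3 ± 6.02 CPM at 28 days and 2.33 ± 1.70 CPM in sham. Nod1, which senses a bacterial cell wall fragment and signals to NF-kB, had the smallest fold of these, 1.87-fold at 14 days and 1.42-fold at 28 days. Nlrp6, Nlrp12 and Naip1 had too few reads to be tested.

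The cytokine substrates were scarce transcripts, and 2 of 3 had an unadjusted p under 0.05 at 14 days and 1 of 3 at 28 days. Il1b, the precursor of interleukin-1 beta, had 3.99, 16.6 and 4.55 CPM at 14 days, 2.96, 3.65 and 4.48 CPM at 28 days, and 1.70, 0.501 and 1.69 CPM in sham. The groups did not overlap, and 14-day replicate 2 stood apart as it did for Nlrp3 (log2 2.69 ± 0.71, edgeR adjusted p = 0.117, at 14 days and 1.51 ± 0.69, edgeR adjusted p = 0.386, at 28 days). The 14-day log2 value of Il1b was 1.74 without that library. Il18 had 7.01, 13.3 and 8.55 CPM at 14 days, 6.79, 12.3 and 6.99 CPM at 28 days, and 2.88, 5.01 and 1.51 CPM in sham, also without overlap. Il1a, which is active without caspase-1, averaged 4.71 ± 1.94 CPM at 14 days, 1.60 ± 0.752 CPM at 28 days and 1.43 ± 1.91 CPM in sham and overlapped sham at both times.

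Brakes were mixed, with 3 of 8 tested genes at an unadjusted p under 0.05 and higher at 14 days and 1 of 8 at 28 days. Il1rn, the secreted antagonist of the interleukin-1 receptor, had 7.15, 31.3 and 11.0 CPM at 14 days, 4.71, 4.59 and 7.21 CPM at 28 days, and 9.38, 0.501 and 4.18 CPM in sham, so that both Ang II groups overlapped sham. The ratio of Il1b to Il1rn was 0.559, 0.531 and 0.414 at 14 days, 0.628, 0.797 and 0.621 at 28 days, and 0.182, 1.00 and 0.404 in sham. It lay higher at 28 days than at 14 days without overlap, and overlapped sham at both times. Il18bp, which binds and blocks interleukin-18, averaged 66.8 ± 25.5 CPM at 14 days, 25.7 ± 9.39 CPM at 28 days and 20.6 ± 15.5 CPM in sham. Il1r2, the decoy receptor, was 5.81-fold higher at 14 days and 2.43-fold at 28 days, from levels under 5 CPM in every library, and its 28-day libraries overlapped sham, at 0.657 to 1.67 CPM against 0.267 to 0.959 CPM. Serpinb1a, an inhibitor of neutrophil proteases and caspase-1, was 4.56-fold and 3.31-fold higher. Dpp8, a peptidase that holds NLRP1B inactive, had 120, 119 and 112 CPM at 14 days, 141, 122 and 128 CPM at 28 days, and 132, 141 and 154 CPM in sham. Its 14-day libraries lay below sham without overlap, at log2 -0.28 ± 0.14 (edgeR adjusted p = 0.259).

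Among the other caspases and executioners, which hold genes of necroptosis, another lytic form of cell death, 7 of 11 tested genes had an unadjusted p under 0.05 at 14 days, all higher, and 5 of 11 at 28 days. Zbp1, a nucleic acid sensor that starts necroptosis and inflammasome assembly, had 41.5, 31.5 and 31.6 CPM at 14 days, 12.6, 21.4 and 31.4 CPM at 28 days, and 5.97, 5.94 and 6.41 CPM in sham. The sham libraries lay within 0.5 CPM of each other and far below both Ang II groups (log2 2.51 ± 0.33, edgeR adjusted p = 0.112, at 14 days and 1.84 ± 0.32, edgeR adjusted p = 0.203, at 28 days). Unlike the inflammasome genes, Zbp1 was highest in 14-day replicate 1. Ripk3, the kinase that ZBP1 engages, had 9.46, 31.4 and 21.3 CPM at 14 days, 11.8, 19.2 and 12.1 CPM at 28 days, and 3.73, 1.93 and 3.56 CPM in sham. Mlkl, which makes the necroptotic membrane lesion, averaged 19.2 ± 6.05 CPM at 14 days, 15.8 ± 3.67 CPM at 28 days and 8.18 ± 1.81 CPM in sham. Casp8, a brake on necroptosis that can also cut gasdermin D, averaged 59.6 ± 15 CPM at 14 days, 51.6 ± 5.87 CPM at 28 days and 28.0 ± 8.51 CPM in sham. None of these 3 overlapped sham at either time.

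Of 13 tested priming and licensing genes 8 had an unadjusted p under 0.05 at 14 days, all higher, and 5 at 28 days. Irf8, a transcription factor of myeloid cells, had 52.6, 178 and 147 CPM at 14 days, 33.7, 161 and 66.1 CPM at 28 days, and 19.6, 8.94 and 11.6 CPM in sham. Gm12250, the mouse GTPase IRGB10 that opens bacterial membranes, averaged 10.9 ± 5.43 CPM at 14 days, 8.10 ± 3.69 CPM at 28 days and 2.74 ± 0.908 CPM in sham. Tlr2 and its adaptor Myd88, which signal to NF-kB, were 4.73-fold and 1.75-fold higher at 14 days and 2.6-fold and 1.29-fold at 28 days. At 28 days Myd88 overlapped sham (edgeR adjusted p = 0.596), while Tlr2 did not (edgeR adjusted p = 0.335). Tlr2 had a 14-day log2 value of 1.28 without 14-day replicate 2, against 2.24 with it. Nek7, the kinase that NLRP3 needs to assemble and a gene singled out after its values were seen, had 105 to 110 CPM at 14 days, 106 to 111 CPM at 28 days, and 105 to 130 CPM in sham, and overlapped throughout.

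The receptors split by cytokine, with 2 of 4 at an unadjusted p under 0.05 at each time. Il18r1 and Il18rap, the chains of the interleukin-18 receptor on lymphocytes, were 17.6-fold and 9.19-fold higher at 14 days (log2 4.14 ± 0.94 and 3.20 ± 0.68, edgeR adjusted p = 0.117 each) and 8.71-fold and 5.12-fold at 28 days. Il18r1 had 2.59, 7.28 and 23.8 CPM at 14 days, 1.97, 9.24 and 5.32 CPM at 28 days, and 0.639, 0.787 and 0.445 CPM in sham. The library that led was 14-day replicate 3, which also had the highest T and NK cell marker sum, 488 CPM against 8.45 to 191 CPM in the other libraries. Without that library the 14-day log2 value of Il18r1 was 2.96. The part of these cells' markers in the Il18r1 level was not tested. Il1r1 and Il1rap, the interleukin-1 receptor chains, averaged 57.8 ± 14.8 and 11.8 ± 1.92 CPM at 14 days, 51.8 ± 10.9 and 9.58 ± 0.523 CPM at 28 days, and 40.9 ± 14.8 and 8.76 ± 3.69 CPM in sham, and overlapped sham at both times.

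Several other pathway values moved by over 1.5 times with 1 library left out. The 14-day log2 fold changes were 1.74 for Naip2 and 0.98 for Il1rn without 14-day replicate 2. Without 28-day replicate 2 those at 28 days were 1.76 for Aim2, 1.90 for Irf8, 1.11 for Serpinb1a and 2.53 for Il18r1. Sham replicate 1 was the highest sham library for genes such as Il1rn, and without it the 14-day values were 3.97 for Nlrc3, 3.79 for Il1a, 3.35 for Il1r2, 2.5 for Il18bp and 2.82 for Il1rn.

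**Figure D5:**
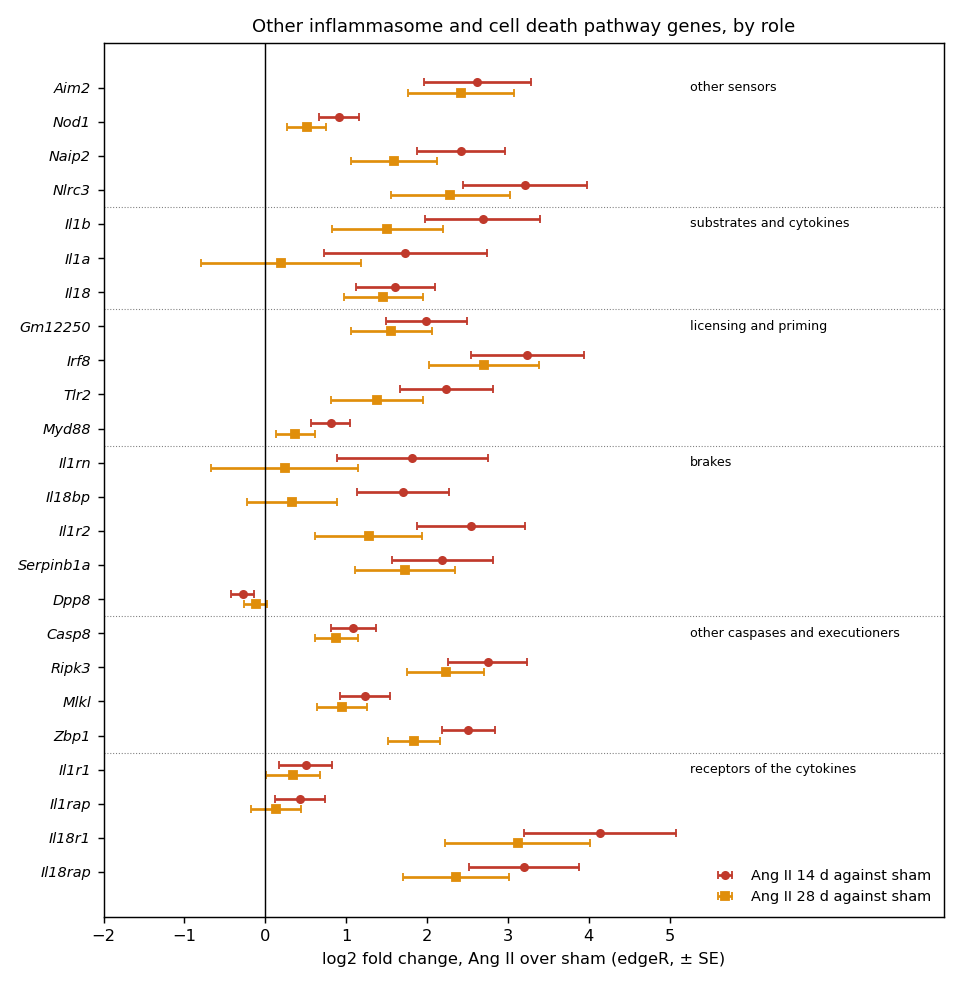
The horizontal axis is the log2 fold change of Ang II over sham from edgeR with its SE, for 24 other pathway genes grouped by role from top to bottom, with circles for 14 days and squares for 28 days. The largest values are those of Il18r1, at 4.14 and 3.12, and Dpp8 lies just left of 0 at both times.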

How the data were processed

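Per the labels' protocols, TRIzol was used to extract RNA, and 9 libraries were prepared with an MGIEasy mRNA-Seq kit. The authors deposited expected counts per gene, 1 file per library, with genes as Entrez IDs; an expected count can hold a share of a read that fits more than 1 gene, and 9.77% to 11% of genes per library had a count that was not whole. HISAT2 2.2.1, Bowtie2 2.4.5, RSEM 1.3.1 and build GRCm38.p6 are named per the submitters' processing notes; neither the aligner behind the counts nor the strandedness is stated there, so reads of a gene and of an antisense or overlapping gene cannot be told apart.

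Counts were rounded and filtered with filterByExpr, which left 14741 genes, and scaled by TMM. edgeR 4.0.16 (R 4.3.3) fitted its quasi-likelihood model, robust, to all 9 libraries with 1 coefficient per group, in 4 comparisons, each adjusted by Benjamini-Hochberg over all genes with a threshold of 0.05. The common dispersion was 0.263, a biological coefficient of variation of 51.3%. Each SE was obtained by dividing the log2 fold change by the root of the F value. An exact permutation test of 3 libraries against 3 cannot go below a two-sided p of 0.1 and was not used. DESeq2 1.42.0 and limma-voom 3.58.1 were alternatives. The steps were tested on simulated data. Log2 CPM for correlations used a prior count of 2; folds of genes with few reads depend on the prior count. The design foresaw FPKM for levels between genes; counts were the unit on hand, so CPM were divided by the length of the GENCODE principal transcript.

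Of 18830 genes 18775 were matched to a symbol. The members, the 6 pathway lists, the marker lists and the settings were chosen with earlier results of these data known. Named pathway genes are up to 4 per list with the smallest unadjusted p at 14 days, plus Il1b, Il18, Aim2 and Il1rn; Nek7 was added after its values were seen. Each member's 5 most like genes were ranked by Pearson's r, and the text names some of them; 1 result is not reported here.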

Additional observations from a re-analysis of the deposited data

Results flagged for a closer look

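Among the 6 Ang II libraries, 33 genes (the 9 inflammasome genes and 24 named pathway genes) were checked for a single library far from the others by Dixon's gap over the range, with a critical value of 0.625, and 9 genes had one. Chance gives about 1 in 20 groups where values are independent and of 1 condition. These genes varied together, most of the pathway genes were picked by their 14-day p, and the libraries span both times. The flags are therefore not separate events, and that rate does not measure an excess. In 8 of the 9 flagged genes the library was 14-day replicate 2. Of the inflammasome genes these were Nlrp3 at 11.1 CPM, P2rx7 at 49.1 CPM and Casp1 at 45.8 CPM. Of the pathway genes they were Naip2 at 32.6 CPM, Nod1 at 79.2 CPM, Il1b at 16.6 CPM, Tlr2 at 62.0 CPM and Il1rn at 31.3 CPM. The same library had a macrophage marker sum of 16054 CPM, against 2622 to 4435 CPM in the other 5 Ang II libraries. The other was Il18r1 at 23.8 CPM in 14-day replicate 3, the library with the highest T and NK cell marker sum.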

How the results depend on the processing

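The direction against sham of the 9 inflammasome genes was positive at both times wherever they were tested under the settings run: DESeq2, limma-voom, RLE factors, no filter, at least 5 CPM in 3 libraries, only the groups compared in the fit, a replicate block, each library left out, and all 3 nerve-rich libraries left out. edgeR and limma-voom called none of them under any of these. Planned fits to FPKM were not run. To check for pairs, deviations of log2 CPM from the group mean were correlated between libraries of different groups. Pearson's r ran from -0.553 to 0.646 for same-numbered libraries and from -0.734 to 0.716 for the others, so the numbers were not taken as pairs. With the replicate block, genes called were 1 at 14 days and 1 with the times pooled, as was the case at 14 days with only the groups compared. DESeq2 called 1970 genes at 14 days, 970 at 28 days, 118 between the times and 1797 pooled, and 8, 2, 0 and 7 of the 9 genes. With at least 5 CPM in 3 libraries the pooled median was 1.12, over fewer genes. Without the 3 nerve-rich libraries, genes under an unadjusted 0.05 were 2 at 28 days, 2 between the times and 5 pooled. The 28-day median was 0.83 and 3 genes did not overlap between the times. That setting has 1 library fewer in each group, so groups come apart more easily by chance. The share of all genes apart under it was not computed, so the 3 genes are not read as a difference between the times.

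With each library left out, the 14-day median ran from 1.13 (without 14-day replicate 2) to 2.13 and the 28-day median from 0.92 (without 28-day replicate 3) to 1.63. Genes called ran from 0 to 7 at 28 days (7 without 28-day replicate 3, 5 without sham replicate 2) and from 0 to 5 pooled (5 without sham replicate 2). Between the times, 0 to 2 genes had an unadjusted p under 0.05 and 0 to 2 did not overlap, in both cases 2 without 14-day replicate 1. Leaving out a library cannot make groups overlap. The 14-day count without overlap was therefore bound to stay at 9, and the count between the times could only rise. Signs turned between the times for Nlrp1b by limma-voom (0.20). With each library left out they turned, in each case without 14-day replicate 2, for Nlrc4 (-0.76 to 0.09), Naip5 (-0.66 to 0.16), Nlrp1b (-0.57 to 0.73), P2rx7 (-0.67 to 0.07) and Casp1 (-0.40 to 0.20). At 28 days against sham they turned for Il1a (-0.35 to 2.25, without 28-day replicate 2 and sham replicates 2 and 3), Il1rn (-0.30 to 1.24, without sham replicate 2), Il1rap (-0.10 to 0.51, without sham replicate 1) and Il18bp (-0.03, without sham replicate 2), and without the nerve-rich libraries for Il1a (-0.66) and Il1rn (-0.20). The cause of these turns was not tested. Depth limits Nlrp3 and Nlrc4 most, with as few as 7 and 5 reads in a sham library.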
